A study of Mus musculus with 4 samples.

Results

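The genes described here carry out the last steps of dietary sugar digestion, the passage of the released hexoses through the enterocyte, and the entry of fructose into metabolism. They were chosen by name, as 7 listed disaccharidase, hexose carrier and fructolysis genes; the rule uses no measured value, but the list was drawn up with earlier results of these data known. Of these, 6 were measured among the 12393 genes tested: Lct, Treh, Slc5a1, Slc2a5, Slc2a2 and Khk. Sis, which encodes sucrase-isomaltase, was not analysed here, since no probe set was assigned to it alone. RNA was hybridised to 4 Affymetrix mouse arrays, with 2 arrays per group. The stem group held Lgr5(hi) stem cells of wild type mice, isolated by flow cytometry, and the enterocyte group held EDTA-released differentiated villus cells from mice with a conditional Atoh1 knockout. All samples came from proximal intestinal epithelium of C57BL/6 mice aged 4 to 6 weeks, and the labels of every sample, the wild type ones included, give tamoxifen at 1 mg per day for 5 days with a wait of 5 days. The labels do not name the promoter that drove the recombinase. The labels call the replicates biological and name no animals or pools behind them, so p-values measure only the spread between these samples.

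Dietary disaccharides are split at the surface of the enterocyte, because only single sugars cross the membrane. Lactase (Lct) and trehalase (Treh) are brush border enzymes. SGLT1 (Slc5a1) takes up glucose and galactose together with sodium, and GLUT5 (Slc2a5) takes up fructose. GLUT2 (Slc2a2) is best known for carrying hexoses out through the basolateral membrane. Ketohexokinase (Khk) phosphorylates fructose and so starts fructolysis, which the small intestine carries out for part of the fructose eaten. Intestinal sugar genes are known targets of CDX, GATA and HNF4 factors and, for fructose genes, of ChREBP (Mlxipl).

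Since these 6 genes were all higher in the enterocyte arrays, the 250 bases before their annotated starts were read from the RefSeq promoter table (GRCm38.p6), which held all 6. The windows of 4 genes are shown 5′ to 3′ on the strand of the gene: those of Slc2a2 and Khk, which had the largest and the smallest difference, of Lct, which held letters of 2 factor families, and of Slc2a5, which held repeated GC boxes. The Slc2a2 window lies at chr3:28697653-28697902 (plus strand), that of Lct at chr1:128328319-128328568 (minus strand), that of Slc2a5 at chr4:150119094-150119343 (plus strand) and that of Khk at chr5:30921309-30921558 (plus strand). Capitals mark the letters searched on both strands, which were TTTATG for CDX, AGATAA for the GATA family, CAAAGT for HNF4, TATAAA for the TATA box, CACGTG for the E-box and GGGCGG for the GC box.
Slc2a2: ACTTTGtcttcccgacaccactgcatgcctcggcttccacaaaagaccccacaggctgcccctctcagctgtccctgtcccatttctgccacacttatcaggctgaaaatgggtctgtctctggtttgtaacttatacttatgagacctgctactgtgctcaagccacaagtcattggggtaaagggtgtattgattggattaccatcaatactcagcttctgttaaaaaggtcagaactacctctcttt
Lct: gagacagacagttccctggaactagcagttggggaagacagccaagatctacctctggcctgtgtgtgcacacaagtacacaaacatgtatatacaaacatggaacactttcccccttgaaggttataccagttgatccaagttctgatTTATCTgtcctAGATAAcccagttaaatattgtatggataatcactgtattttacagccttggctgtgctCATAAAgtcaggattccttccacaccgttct
Slc2a5: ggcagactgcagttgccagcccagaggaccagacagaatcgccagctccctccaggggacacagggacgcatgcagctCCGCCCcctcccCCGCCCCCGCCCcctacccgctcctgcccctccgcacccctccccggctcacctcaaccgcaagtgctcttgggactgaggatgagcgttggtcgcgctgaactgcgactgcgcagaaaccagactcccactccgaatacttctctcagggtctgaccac
Khk: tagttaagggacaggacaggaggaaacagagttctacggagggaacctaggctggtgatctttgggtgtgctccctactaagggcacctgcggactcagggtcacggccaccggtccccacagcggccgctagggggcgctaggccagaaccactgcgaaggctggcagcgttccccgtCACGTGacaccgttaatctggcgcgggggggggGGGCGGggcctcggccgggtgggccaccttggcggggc

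The Lct window held TTTATG and AGATAA, found in 11.1% and 10.3% of 27025 promoter windows of the same length, and AGATAA occurred there on both strands, its matches starting 101 and 90 bases before the gene. CAAAGT stood in the Treh and Slc2a2 windows and in 12.5% of all, and CACGTG in the Slc5a1 and Khk windows and in 6.05% of all. GGGCGG stood in those of Slc2a5, at 3 places, and Khk, and in 32.9% of all, while TATAAA, found in 13.0% of all, stood in none of the 6. The GC content was 42.8% for Lct, 47.2% for Slc2a2, 66.4% for Slc2a5 and 67.2% for Khk, with a median of 52.0% over all windows. None of these letters stood in all 6 windows, and a match describes letters, not a bound site.

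All 6 measured genes rose in enterocytes, by 4.99-fold for Khk to 81.0-fold for Slc2a2. The median log2 difference (enterocyte minus stem) was 4.25, against -0.0026 over all genes tested. Adjusted p lay between 0.00225 and 0.00323 (limma, Benjamini-Hochberg over all genes, threshold 0.05), and both enterocyte arrays stood above both stem arrays for 6 of 6 genes. Over all genes tested, 18.2% rose and 22.4% fell past the threshold, and both enterocyte arrays stood above both stem arrays in 30.5%. Differences of at least 16-fold past the threshold were found for 3 of the 6 genes as measured and for 0.952% of all genes. Leaving out an array ended some or all of these calls. Each such fit leaves 1 array in a group and ended calls over the whole table too. The log2 differences of the 6 genes ran from 2.43 to 6.61 without stem replicate 1. They ran from 2.21 to 6.06 without stem replicate 2. Without enterocyte replicate 1 they ran from 2.28 to 6.27, and without enterocyte replicate 2 from 2.35 to 6.41.

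**Figure D1:**
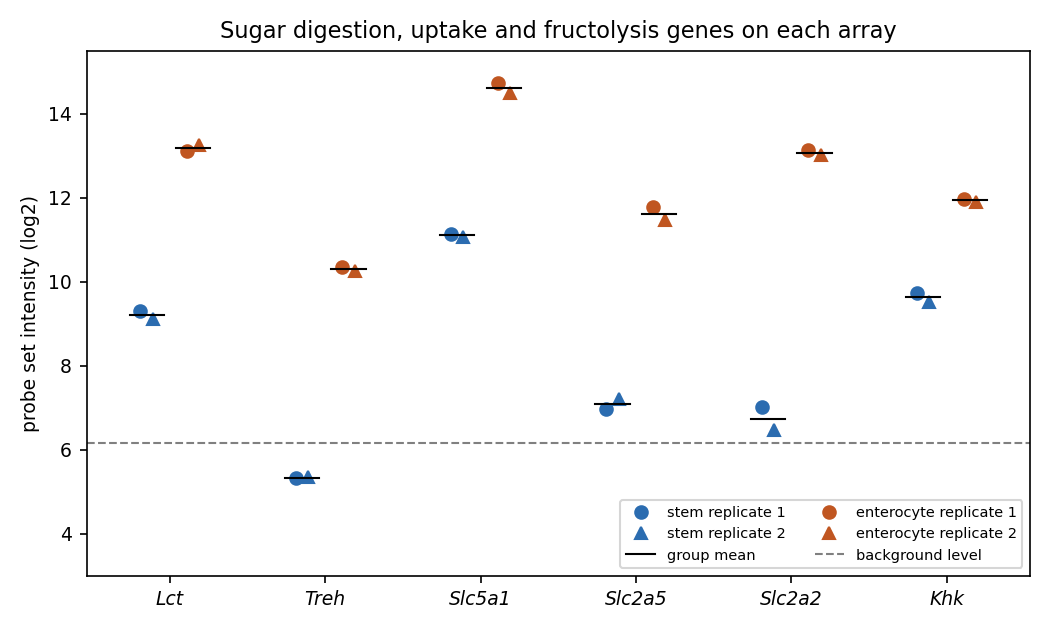
Log2 probe set intensity of the 6 genes on each of the 4 arrays (stem in blue, enterocyte in orange; circles, replicate 1; triangles, replicate 2; bars, group means), with the background level as a dashed line. For every gene both enterocyte points lie above both stem points, and for Treh both stem points lie below the background level of 6.16.

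Among the hydrolases, the Lct probe set read 634 and 552 intensity units in the stem arrays, against 8848 and 9715 in the enterocyte arrays. The groups were far apart, and lactase signal was well above background in the stem arrays too. Which cells of the stem samples gave this signal was not tested. Lct rose 15.7-fold (log2 difference 3.97 ± 0.11 SE with n = 2 arrays in each group; limma's adjusted p = 0.00261). The trehalase probe set gave 40.4 and 40.5 in stem against 1306 and 1231 in the enterocyte arrays. Both stem values lay under the background level of 71.4 intensity units, which is the 90th percentile of the mean levels of 27 genes of other organs, so a stem level of Treh was not measured. Treh was therefore at least 17.8-fold higher in enterocytes, with a measured log2 difference of 4.97 ± 0.06 SE (adjusted p = 0.00225 by limma).

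Of the apical carriers, the Slc5a1 probe set with the higher mean gave 2268 and 2129 in stem against 27375 and 23120 in the enterocyte arrays. Sodium-dependent glucose carrier RNA was thus read in both groups and was higher in both enterocyte arrays. Slc5a1 rose 11.4-fold (3.52 ± 0.11 SE, adjusted p = 0.00261 by limma). Its other probe set read 837 and 585 in stem and 15798 and 12347 in enterocyte arrays, a difference of 4.32 ± 0.25 SE or 20.0-fold (adjusted p = 0.00504 by limma over all 20380 probe sets). Both probe sets gave the same direction, and the size differed by 1.74 times between them. The Slc2a5 probe set, for the fructose carrier, gave 125 and 149 in stem against 3525 and 2814 in the enterocyte arrays. Its stem values lay not far above the background level of 71.4 intensity units. Its enterocyte replicates lay farther apart than those of any other of the 6 genes, by 0.33 on the log2 scale, and still far above both stem arrays. Slc2a5 rose 23.1-fold (4.53 ± 0.17 SE, adjusted p = 0.00277 by limma).

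The basolateral carrier gene Slc2a2 gave 129 and 88.2 in stem against 9057 and 8230 in the enterocyte arrays. Its stem replicates differed by 0.55 on the log2 scale, the widest replicate gap among the 6 genes, and both lay little above the background level. Slc2a2 rose 81.0-fold (6.34 ± 0.23 SE, adjusted p = 0.00271 by limma), the 11th largest difference among all 12393 genes. Khk, the enzyme that commits fructose to metabolism, gave 852 and 732 in stem against 4038 and 3847 in the enterocyte arrays. It was well above background in the stem arrays, as Lct and Slc5a1 were. Khk rose 4.99-fold (2.32 ± 0.10 SE, adjusted p = 0.00323 by limma), the smallest rise of the 6 and 409th among all genes.

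The 6 genes thus differed among themselves in the size of the rise, in the order Slc2a2, Treh, Slc2a5, Lct, Slc5a1 and Khk. When each enterocyte array was set against each stem array, the lowest of the 4 differences of a gene lay above the highest of the next gene at every step of this order. The steps were narrow in the middle: Treh began at 4.93 and Slc2a5 reached 4.81, Slc2a5 began at 4.24 and Lct reached 4.14, and Lct began at 3.80 and Slc5a1 reached 3.68. The 4 differences of a gene share arrays and are not independent, and limma's 95% intervals overlapped at each of these middle steps. The intervals were 4.79 to 5.16 for Treh, 4.01 to 5.04 for Slc2a5, 3.64 to 4.30 for Lct and 3.17 to 3.87 for Slc5a1. The middle order also depended on how the probe sets were read. With stem values raised to the background level, Treh stood at 4.15, below Slc2a5, and the other probe set of Slc5a1 stood at 4.32, above Lct. Slc2a2 at the top and Khk at the bottom kept their places in both readings. Replicate gaps of the 6 genes ran from 0.0031 (Treh, stem) to 0.55 on the log2 scale, where the median gap over all genes was 0.13 in the stem and 0.14 in the enterocyte group.

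**Figure D2:**
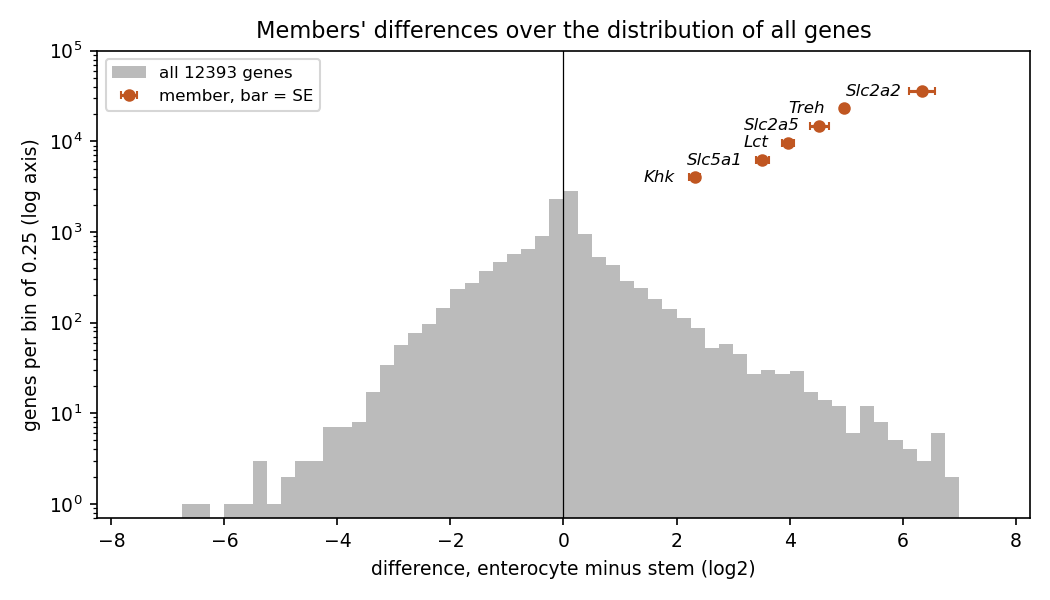
Log2 difference (enterocyte minus stem) of the 6 genes with limma's SE, drawn over the histogram of all 12393 genes in bins of 0.25 (log count axis). The height of the orange points has no meaning; they run from 2.32 (Khk) to 6.34 (Slc2a2), in the upper tail of the histogram.

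The genes closest in pattern were found by the Euclidean distance between log2 values centred on each gene's mean over the 4 arrays, which come from 2 groups and therefore mostly compare the size of the difference. Distances to Treh, and that of Slc15a1, rest on stem values below background, so the genes named for them are those nearest to the values as read. Nearest to Slc2a2 were St3gal4, a sialyltransferase gene (distance 0.15), and the peptide carrier gene Slc15a1 (0.26). Nearest to Treh were Ace (0.13), whose product angiotensin-converting enzyme is also a brush border hydrolase, and the anion exchanger gene Slc26a6 (0.15). Nearest to Lct were Sec23a (0.09), of the COPII coat, and Mpp1 (0.10). For Slc5a1 these were the carboxylesterase gene Ces2e (0.14) and the cytokine gene Il18 (0.17), for Slc2a5 Cyp3a25 (0.16), a cytochrome P450 gene, and the apolipoprotein gene Apoc3 (0.24), and for Khk Igsf5 (0.06) and Adtrp (0.07).

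Other genes of sugar handling were read from 9 lists with 84 measured genes, the 6 genes above left out. Of these, 35 (41.7%) rose and 19 (22.6%) fell, 30 had no call and the median log2 difference was 0.32, where 18.2% of all genes rose and 22.4% fell. Centring each array on the median of 10 reference genes shifted every difference by -0.70. This left 26 of the 84 genes higher and 41 lower, at a median of -0.38. Over all 12393 genes the centring left 1251 higher and 9078 lower, at a median of -0.70. It turned the medians of the galactose (-0.15), Slc2a (-0.31), sodium gradient (-0.20) and transcription factor (-0.53) lists below 0. Leaving out an array ended most or all of the calls among the 84, as it did over all genes. Each such fit leaves 1 array in a group. In the fructolysis and polyol list, whose measured genes included none of the polyol pathway, 4 of 5 genes rose and 1 fell, at a median of 0.71. Under reference gene centring 2 of these rose and 1 fell, at a median of 0.01. Tkfc, which encodes triokinase of fructolysis, gave log2 8.36 and 8.11 in stem against 9.71 and 9.38 in the enterocyte arrays, and rose 2.49-fold (1.31 ± 0.17 SE, adjusted p = 0.0136 by limma). Tpi1, which interconverts the triose phosphates, rose 3.80-fold (1.93 ± 0.17 SE), and its probe sets ranged from 0.68 to 1.93. Glyctk, the glycerate kinase gene, was at least 1.46-fold higher on its brighter probe set, and the other gave 1.72. The difference of 0.71 on the brighter probe set was 0.01 under reference gene centring. Aldh1b1, a mitochondrial aldehyde dehydrogenase gene, fell 4.85-fold (-2.28 ± 0.20 SE).

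Genes that phosphorylate glucose or release it went both ways, with 6 rises, 3 falls and 3 genes without a call among 12 (median 0.94). G6pc, the catalytic subunit of glucose-6-phosphatase, read log2 4.84 and 4.48 in the stem arrays, both below background, and 8.60 and 9.01 in the enterocyte arrays. It was at least 6.27-fold higher (measured difference 4.15 ± 0.22 SE, adjusted p = 0.00363 by limma), and the gene of its partner carrier Slc37a4 rose 3.23-fold (1.69 ± 0.14 SE; named after its values were seen). Pck1, cytosolic phosphoenolpyruvate carboxykinase of gluconeogenesis, was at least 39.5-fold higher on its brighter probe set (5.72 ± 0.24 SE), while the other gave -0.09. The mitochondrial form Pck2 fell 5.16-fold (-2.37 ± 0.19 SE). Hk2, a hexokinase of proliferating cells, read 9.77 and 9.65 in the stem arrays against 7.63 and 6.96 in the enterocyte arrays, and fell 5.32-fold (-2.41 ± 0.27 SE). The phosphoglucomutase gene Pgm2 rose 4.59-fold (2.20 ± 0.05 SE). In the galactose pathway 2 of 4 genes rose and 2 did not pass (median 0.54): Ugp2, which makes UDP-glucose, rose 2.06-fold (1.04 ± 0.16 SE) and Galm, the mutarotase gene, 1.88-fold (0.91 ± 0.11 SE). Their probe sets ranged from 0.31 to 1.04 for Ugp2 and from 0.19 to 1.39 for Galm. With the lowest-mean probe set neither passed (Ugp2 0.81, adjusted p = 0.124; Galm 0.19, adjusted p = 0.38, both by limma), and under reference gene centring neither passed (0.34 and 0.21). Ugp2 also did not pass after quantile normalization (0.31) or on the mean over its probe sets (0.69, adjusted p = 0.0539 by limma).

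Relatives of the carriers behaved unevenly. Of 6 further Slc2a genes, 2 rose and 4 did not pass (median 0.39), and 4 of the 6 lay below background in stem and 3 in enterocyte arrays. Slc2a9, a urate carrier of the family, was at least 5.69-fold higher (2.90 ± 0.10 SE), and Slc2a8 rose 1.44-fold (0.53 ± 0.08 SE), a difference that turned to -0.17 under reference gene centring. Slc2a1, the widespread glucose carrier GLUT1, gave log2 9.02 and 9.29 in stem against 9.83 and 9.22 in the enterocyte arrays, so the groups overlapped. Its difference was 0.37 ± 0.27 SE (adjusted p = 0.372 by limma), or -0.33 under reference gene centring. Slc2a7, the gene beside Slc2a5, was not analysed here. Among 10 further Slc5a genes there were 5 rises and 5 genes without a call (median 1.09). Slc5a4a and Slc5a4b, which encode the SGLT3 proteins of the mouse, lay below background in the stem arrays. Slc5a4a was at least 10.6-fold higher in enterocytes (4.16 ± 0.22 SE), and Slc5a4b at least 3.35-fold higher (2.38 ± 0.21 SE). Slc5a11, an inositol carrier gene, rose 9.93-fold (3.31 ± 0.09 SE).

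SGLT1 works on the sodium gradient, and several brush border carriers are held by PDZ scaffolds. In that list there were 5 rises, 2 falls and 3 genes without a call among 10 (median 0.50). The scaffold gene Pdzk1 was at least 19.6-fold higher (4.59 ± 0.24 SE), and the kinase gene Sgk1, a regulator of sodium transport, rose 17.5-fold (4.13 ± 0.30 SE). Potassium channel genes split: Kcnk5 rose 4.58-fold (2.19 ± 0.13 SE), while Kcnq1 fell 3.43-fold (-1.78 ± 0.23 SE) and its partner subunit Kcne3 2.87-fold (-1.52 ± 0.19 SE). Carbohydrases outside the brush border set showed 1 rise, 3 falls and 4 genes not past the test of 8 (median -0.19). Ganc, a neutral alpha-glucosidase gene, rose 1.61-fold (0.69 ± 0.11 SE; -0.01 under reference gene centring). Gba2 was at least 1.49-fold lower on its brighter probe set, and its other probe set gave 0.08. The lysosomal genes Glb1 and Man2b1 fell 1.56-fold (-0.64 ± 0.13 SE) and 1.44-fold (-0.53 ± 0.05 SE). The other probe set of Man2b1 gave -1.55. With the replicate number as a block Gba2 and Glb1 did not pass (adjusted p = 0.0637 and 0.0791 by limma), which left 1 fall in this list. Mgam, the maltase-glucoamylase gene, was not analysed here.

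In the main fit, transcription factors linked to sugar genes were evenly divided (median 0.16). Of 18 genes 7 rose, 7 fell and 4 had no call, where 18.2% of all genes rose and 22.4% fell. Reference gene centring gave 5 rises and 11 falls here, against 1251 and 9078 among all 12393 genes. The lowest-mean probe set gave 4 rises and 6 falls, against 1950 and 1943. Mlxipl, which encodes the sugar-responsive factor ChREBP, gave log2 11.66 and 11.90 in stem against 9.64 and 9.68 in the enterocyte arrays. It was lower in both enterocyte arrays than in either stem array, and fell 4.34-fold (-2.12 ± 0.11 SE, adjusted p = 0.00343 by limma), opposite in direction to Khk and Slc2a5. Of HNF4 factors, Hnf4g rose 10.3-fold (3.36 ± 0.40 SE), and its other probe set gave 1.90 and did not pass (adjusted p = 0.084 by limma). Hnf4a, with 0.21 ± 0.09 SE (adjusted p = 0.175 by limma), did not pass, but its 4 probe sets ranged from 0.08 to 1.80, and on their mean it did (0.66, adjusted p = 0.0217 by limma). Gata4 did not pass (0.14 ± 0.10 SE, adjusted p = 0.362 by limma). Under reference gene centring these 2 stood at -0.49 and -0.56, past the threshold. The intestinal homeobox gene Cdx2 fell 2.03-fold on its brighter probe set (-1.02 ± 0.11 SE), and the other probe set gave 0.12. Ppargc1a, a coactivator of energy metabolism, rose 6.11-fold (2.61 ± 0.40 SE), Prdm1, a repressor of the suckling-stage programme, was at least 2.10-fold higher (2.46 ± 0.14 SE), and Foxa3 fell 7.91-fold (-2.98 ± 0.15 SE).

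Among sugar sensing genes and targets of ChREBP 3 of 11 rose, 3 fell and 5 did not pass (median -0.02). Of all genes 18.2% rose and 22.4% fell. With the lowest-mean probe set 5 rose and 1 fell, against 1950 and 1943 of all 12393 genes. Under reference gene centring 4 rose and 7 fell (median -0.72), against 1251 and 9078 of all genes. Pklr, a pyruvate kinase gene regulated by ChREBP, rose 4.82-fold (2.27 ± 0.08 SE), and Elovl6, a fatty acid elongase gene, 4.25-fold (2.09 ± 0.15 SE). The lipogenic genes Acly and Fasn fell 3.46-fold (-1.79 ± 0.12 SE) and 3.08-fold (-1.62 ± 0.26 SE), with probe sets of Acly between -1.79 and 0.11. Txnip, a glucose-induced gene, fell 1.51-fold on its brighter probe set (-0.60 ± 0.10 SE), while the other gave 0.73, and with the replicate number as a block it did not pass (adjusted p = 0.0533 by limma). Trpm5, a channel of taste signalling that also marks tuft cells, rose 4.55-fold (2.19 ± 0.44 SE). The summed level of 7 tuft cell markers, which include Trpm5, was 529 to 765 in the stem and 2963 to 4430 in the enterocyte arrays, and their part in this rise was not tested.

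**Figure D3:**
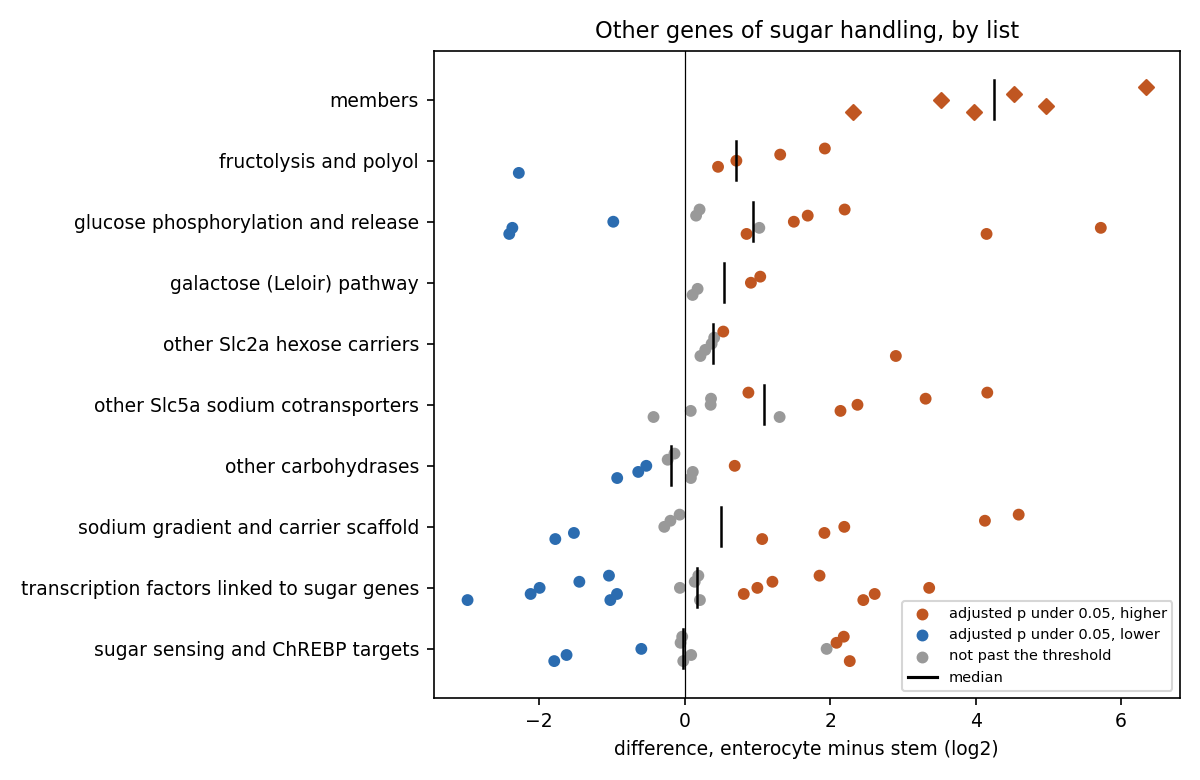
Log2 difference (enterocyte minus stem) of each measured gene in 9 lists of sugar handling (points; orange, higher and blue, lower past an adjusted p of 0.05; grey, not past it) and of the 6 genes described above (diamonds), with each list's median as a bar. The diamonds lie between 2.32 and 6.34, and the transcription factor list spreads to both sides of 0.

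The genes next to the 6 on their chromosomes were compared with them after the data were seen. Of 8 measured adjacent protein-coding genes 2 rose, 2 fell and 4 did not pass the test, at a median of -0.19, shares near the 18.2% of all genes that rose and the 22.4% that fell. Mcm6, a subunit of the replicative helicase and the gene directly beside Lct on chromosome 1, gave log2 11.24 and 11.01 in stem against 9.31 and 9.01 in the enterocyte arrays. The groups did not overlap, in the direction opposite to Lct. Mcm6 fell 3.90-fold (-1.96 ± 0.16 SE, adjusted p = 0.00604 by limma). On the other side of Lct, Ubxn4 did not pass (-0.84 ± 0.37 SE, adjusted p = 0.185 by limma). Beside Treh, Phldb1 fell 2.19-fold (-1.13 ± 0.15 SE), and beside Slc5a1, Ywhah rose 1.70-fold (0.76 ± 0.07 SE). Cgref1, the gene beside Khk, read 8.86 and 8.92 in the stem and 11.88 and 12.10 in the enterocyte arrays. It rose 8.58-fold (3.10 ± 0.10 SE, adjusted p = 0.00265 by limma), more than Khk itself, while Emilin1 on the other side lay below background in both groups and did not pass (0.18 ± 0.12 SE, adjusted p = 0.339 by limma).

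**Figure D4:**
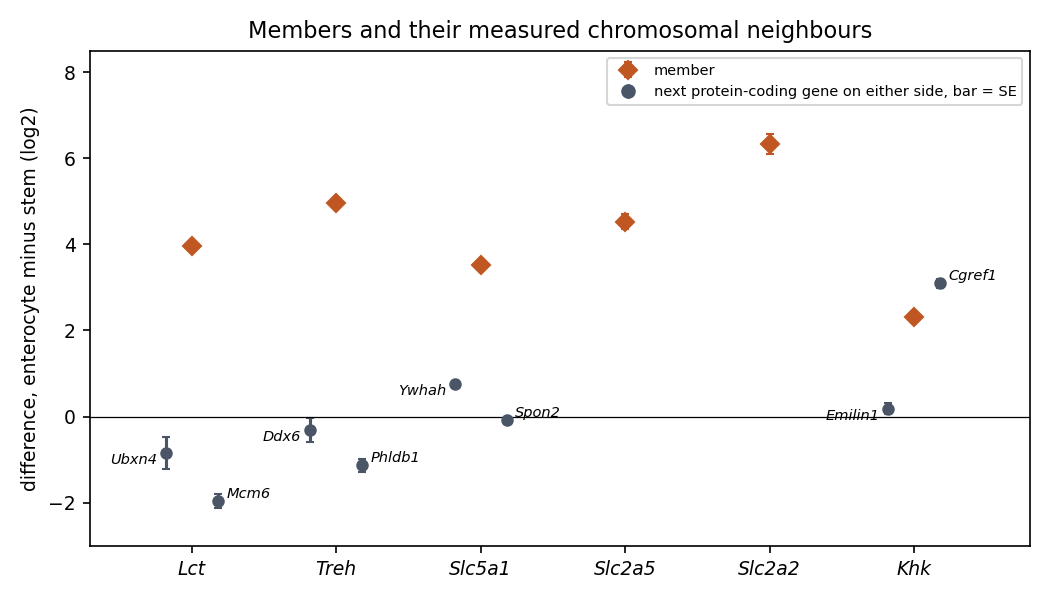
Log2 difference (enterocyte minus stem) with limma's SE of the 6 genes (diamonds) and of the next protein-coding gene on either side where it was measured (circles, named). Mcm6 lies at -1.96 beside Lct at 3.97, Cgref1 lies at 3.10 beside Khk at 2.32, and no adjacent gene of Slc2a5 or Slc2a2 was measured.

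Cell type, genotype and isolation changed together between the groups and cannot be told apart, and in bulk RNA fewer cells of a type and less RNA per cell cannot be told apart either. Enterocyte markers were higher in 9 of 9 cases, with a summed level of 21449 to 23207 intensity units in the stem and 162649 to 171262 in the enterocyte arrays. In stem arrays 1 of these 9 lay below background. Stem cell markers were lower in 8 of 8 cases (summed level 18385 to 21260 in stem, 2774 to 3524 in enterocyte arrays). Markers of goblet cells were lower in 7 of 8 cases (35949 to 42133 against 675 to 1226), of Paneth cells in 3 of 5 (30437 to 40277 against 430 to 2993) and of enteroendocrine cells in 8 of 10 (9555 to 12110 against 796 to 891). Lymphocyte markers were higher in 9 of 9 (500.03 to 640 against 6389 to 8431), and 6 of these 9 lay below background in the stem arrays. Their part in the differences of the sugar genes was not tested. Myeloid markers fell in 2 of 9 cases and stromal and endothelial markers in 1 of 10, and 4 of 4 red blood cell markers lay below background in both groups. Of 64 control probe sets 18 differed at least 2-fold between the groups. Array medians lay between 102 and 111 intensity units. In all, 2257 genes rose and 2779 fell. Reference gene centring moved the median of all genes from -0.0026 to -0.70, and the split to 1251 higher and 9078 lower. The 6 genes stayed past the threshold under it, at 1.62 to 5.64.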

How the data were processed

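Arrays of 2 stem and 2 enterocyte samples were compared. The authors deposited 1 normalized intensity for each probe set and array, on a linear scale (7.93 to 41703.8). RMA is the tool named, per the submitters' processing notes; version and scaling between arrays are not given in the sources used here. RMA itself returns log2 values, so these were probably converted back before deposit. As the design provided for linear values, log2 of each intensity was used, without a pseudocount. All 4 columns had a sample (0 without).

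Of 22690 probe sets (64 controls), 20380 had exactly 1 symbol in the platform annotation and 691 several; 20351 Entrez identifiers matched RefSeq (GRCm38.p6), used for names. The highest-mean probe set stood for each of 12393 genes. Differences were tested with limma 3.58.1 (lmFit, eBayes; R 4.3.3), as a two-sided test, and p-values were adjusted by Benjamini-Hochberg over all genes. SE is limma's, with 2 residual and 1.23 prior degrees of freedom. The number of arrays limits the precision. The fit was tested on simulated data.

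The background level was log2 6.16 (27 genes of other organs, of which 2, Myl7 and Mbp, passed the threshold). Where 1 group mean lay below it, "at least" gives the brighter mean over the other mean with each array raised to that level.

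The members and gene lists were chosen with earlier results of these data known. The rule named every measured member; in each list up to 3 called genes of largest difference in the more frequent direction and up to 2 in the other; Tkfc, Mgam, G6pc, Slc2a1, Slc2a7, Cdx2, Gata4, Hnf4a, Mlxipl and Txnip whatever their p (others are not reported here); and the 2 nearest genes per member. It gave 46 genes beside the nearest ones. Alternatives covered the replicate block, each array left out, probe set choice, background, scaling, variance model, array weights and a pseudocount of 16.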

Additional observations from a re-analysis of the deposited data

How the results depend on the processing

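The rise of the 6 genes kept its direction under every alternative run, and the smallest difference was 1.62 (Khk, centred on reference genes). The replicate block, the variance model, array weights and dropping genes below background in both groups left every difference of the 6 unchanged. Those runs could not test the direction. Where a gene kept a value, probe set choice changed only the difference of Slc5a1. All 6 passed the threshold except when an array was left out, where 0 to 4 passed and 0 to 1721 of all genes did; then the lone sample of a group is assumed to vary like the other group. Without stem replicate 1 or 2, limma called 0 genes, though unadjusted p was under 0.05 in 4675 and 4817. Centred on reference genes, 10329 of all genes passed, against 5036. With the replicate number as a block (replicate block), 6 of 6 and 4567 of all genes passed; the numbers are not stated to mark a shared animal or batch, and the deviations of replicate 1 from the group means correlated at 0.0504 across genes between the groups. Treh had no value without _s_at, _x_at and _a_at probe sets, where 5 of 5 genes passed. With the lowest-mean probe set Slc5a1 stood at 4.32. Treh rests on a stem level below background: raised to it, the difference fell to 4.15. Counts of the 9 sugar gene lists in each direction were within 1.5 times of the main count in 187 of 270 cases. These include cases where both counts were 0, which say nothing about stability. Of the other 83, 55 came from leaving out an array and 12 from centring on reference genes. With the replicate block the 84 other sugar genes gave 34 rises and 16 falls. Signal near background limits the stem levels of Treh, Slc2a2 and Slc2a5.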
